A study of Mus musculus with 16 samples.

Results

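Il10, Areg and 6 further genes for secreted mediators of immune control and tissue repair, or their receptor, were followed in regulatory T cells (Treg) and conventional T cells (Tconv) of mouse visceral adipose tissue (VAT). The set was chosen by gene symbol: Il10, Ebi3, Fgl2, Areg, Hbegf, Calca, Penk and Il10ra. All 8 of the 8 symbols had a row in the table of 19540 genes, and all 8 passed the filter on low values (10 or more in at least 3 of the 16 libraries), as did 14319 genes in all. The study sequenced RNA of both cell types from mice in which Hpgd, the enzyme that inactivates prostaglandin E2, was deleted in Treg (called KO) and from wild type mice (WT), and asked what this loss does to the cells. The groups were Treg KO (4 libraries), Treg WT (3), Tconv KO (5) and Tconv WT (4).

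The mice were of the C57BL/6JRcc strain and 12 weeks old. A floxed Hpgd allele was combined with Foxp3-YFP-Cre, in which the Foxp3 gene drives the recombinase, so the deletion was aimed at Treg and Tconv KO are the Tconv that lived beside deleted Treg. The line label names both alleles in all 16 samples, WT included, so the genotype rests on the sample titles. The design text gives 5 deleted and 4 WT animals. No label links a library to an animal, so p-values measure the spread between these libraries, which may in part be technical. Which markers were used in the sort is not given in any source used here.

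Treg are CD4 T cells that hold immune responses in check, and those of visceral fat are known for high Il10, for the receptor of the alarmin IL-33 (Il1rl1) and for repair factors. IL-10 is a cytokine that acts through a receptor with a ligand-binding chain (Il10ra) and dampens inflammation. Ebi3 is a subunit shared by IL-27 and IL-35, Fgl2 is a fibrinogen-like protein that Treg secrete, and Areg (amphiregulin) and Hbegf are ligands of the epidermal growth factor (EGF) receptor family. Calca encodes calcitonin and the neuropeptide CGRP, and Penk encodes the precursor of the enkephalins, which bind opioid receptors.

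Values are the authors' normalised read counts plus 1, so 1 stands for no reads. Libraries held 3390220 to 56653889 reads, with Tconv KO 3 the deepest and the next at 9262221. Hpgd read 3.41, 2.54, 2.42 and 1 in Treg KO and 73.1, 56.0 and 4.31 in Treg WT (exact 2-sided permutation test, p = 0.0571, the smallest that 35 splits allow). Treg WT 3 was therefore near the KO libraries. Foxp3, the defining Treg factor, read 279 to 546 in Treg KO and 292 to 616 in Treg WT. It read 1 to 4.99 in Tconv KO, and in Tconv WT it read 1 in 2 libraries, 20.6 in Tconv WT 1 and 39.3 in Tconv WT 4. The summed level of 5 T cell markers was 19806 to 25824 in Treg KO, 18173 to 24099 in Treg WT, 27444 to 35589 in Tconv KO and 25979 to 30514 in Tconv WT. The summed level of the 9 of 10 macrophage markers found was 22.7 to 280 in Treg KO, 0.872 to 55.7 in Treg WT, 40.6 to 222 in Tconv KO and 12.2 to 1078 in Tconv WT. Tconv KO 3, Tconv WT 1 and Tconv WT 3 stood apart in the summed level of markers of type 2 innate lymphoid cells.

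The stretch of 250 bases before the RefSeq start is shown for Areg and Calca, because both were highest in the same 3 of the 9 Tconv libraries. Fgl2 shared that pattern, but its window (chr5:21372423-21372672) runs past the GENCODE start of the gene at 21372642 into the first exon, so only its motifs are given. RefSeq windows were found for 4 of the 8 genes (Ebi3, Fgl2, Areg and Calca). Both sequences run 5′ to 3′ on the gene's own strand, in the mm10 build (GRCm38.p6), at chr5:91139349-91139598 on the plus strand for Areg and chr7:114636358-114636607 on the minus strand for Calca. Capitals mark matches to the cyclic AMP response element (CRE), TGACGTCA, or to its shorter core, TGACG, on either strand.
Areg: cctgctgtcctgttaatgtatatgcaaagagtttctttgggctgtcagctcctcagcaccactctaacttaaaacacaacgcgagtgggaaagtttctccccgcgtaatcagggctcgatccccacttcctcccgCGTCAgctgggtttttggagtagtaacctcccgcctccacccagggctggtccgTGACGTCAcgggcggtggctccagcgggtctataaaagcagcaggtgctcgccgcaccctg
Calca: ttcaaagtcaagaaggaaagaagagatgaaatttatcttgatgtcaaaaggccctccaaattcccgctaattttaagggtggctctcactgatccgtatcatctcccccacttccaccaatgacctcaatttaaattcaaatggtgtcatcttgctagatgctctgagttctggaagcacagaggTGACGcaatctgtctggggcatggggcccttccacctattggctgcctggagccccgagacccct
Areg held the full CRE from base 61 to base 54 before its start, which contains the core on both strands, and a separate core, read as CGTCA, from base 115 to base 111. Calca held the core alone, from base 65 to base 61 before its start. Fgl2 held neither form but had the AP-1 motif, TGANTCA, from base 16 to base 10 before its RefSeq start, and Ebi3 held none of the 3 motifs. Among 32851 RefSeq windows of 250 bases, 1.55% held the full CRE, 17.8% held the core and 6.75% held AP-1, both strands searched. A match describes the letters and not a bound site.

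Set against each other per kilobase of merged exon, the 8 genes covered a wide span in Treg. Il10 had a mean level of 8333 ± 4538 per kilobase in Treg KO (SD, n = 4) and 10360 ± 7019 in Treg WT (SD, n = 3), which ranked 34 in Treg KO and 22 in Treg WT among 18235 genes with a length. Areg followed at 3054 ± 1096 per kilobase in Treg KO and 2715 ± 1773 in Treg WT, then Il10ra at 2181 ± 494 in Treg KO and 2053 ± 650 in Treg WT. Fgl2 lay at 1495 ± 305 per kilobase in Treg KO and 1576 ± 529 in Treg WT. Below these came Calca (582 ± 132 per kilobase in Treg KO and 711 ± 863 in Treg WT), Penk (290 ± 225 in Treg KO and 246 ± 207 in Treg WT) and Ebi3 (283 ± 97.2 in Treg KO and 125 ± 31.4 in Treg WT). Hbegf was far below the rest, at 15.96 ± 6.64 per kilobase in Treg KO and 3.08 ± 4.87 in Treg WT. The order of means was the same in both genotypes. Neighbours in that order overlapped within 1 SD, except Fgl2 above Calca in Treg KO and Ebi3 above Hbegf in both genotypes.

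**Figure D1:**
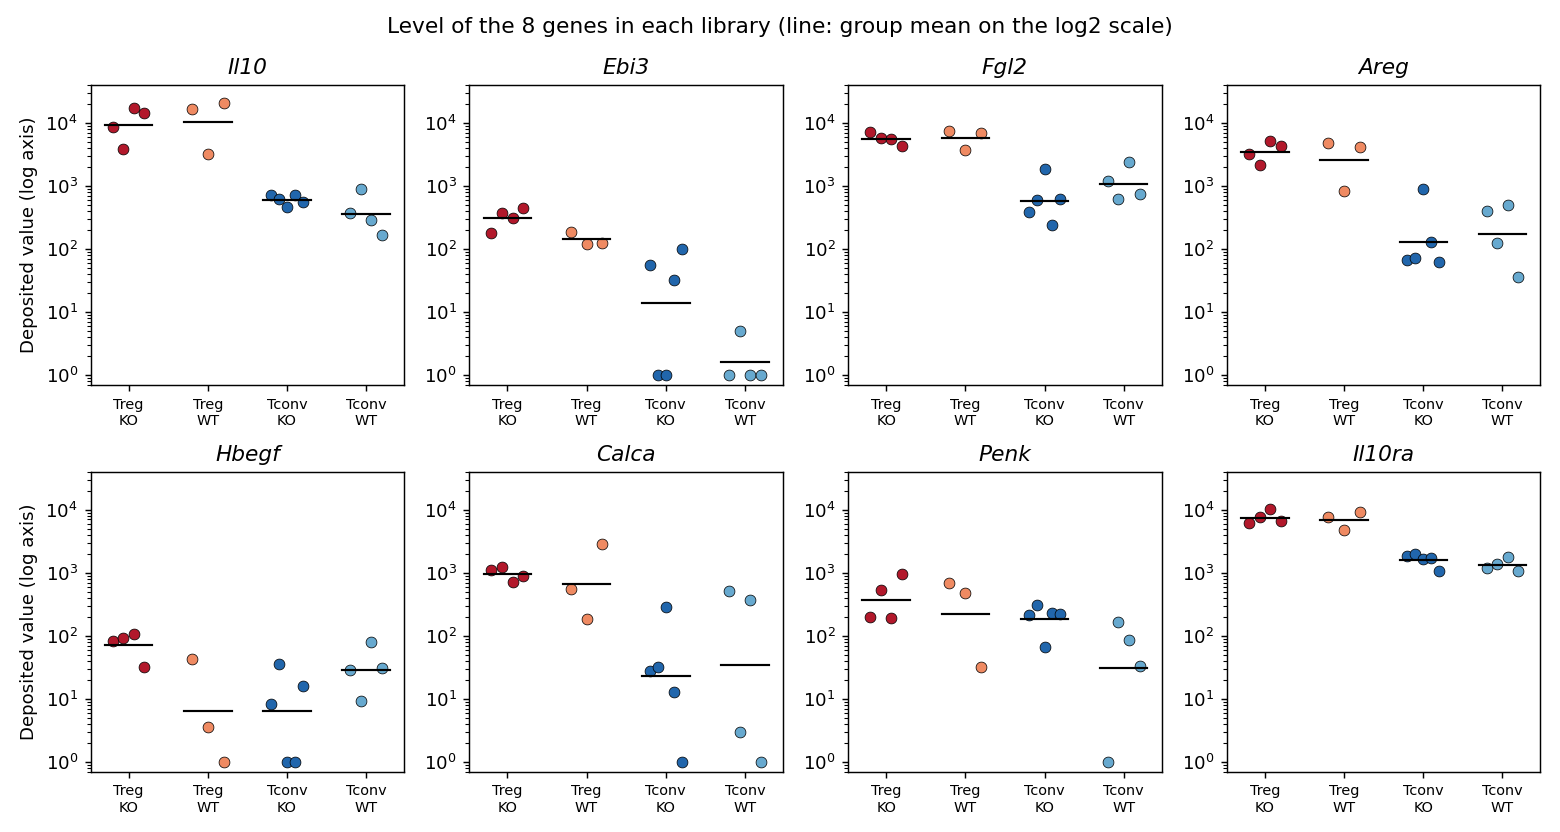
Level of each of the 8 genes in every library: the y axis is the deposited value (normalised read count plus 1, log axis), each point is 1 library, and the line is the group mean on the log2 scale. All 7 Treg libraries lie above all 9 Tconv libraries for Il10, Ebi3, Fgl2 and Il10ra, while Treg KO and Treg WT overlap for all 8 genes.

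The first comparison asked how Treg differ from Tconv in the same fat. Il10, Ebi3, Fgl2, Areg and Il10ra were higher in Treg in both genotypes, and Calca was higher in KO. In all, 6 of the 8 genes were higher in Treg KO than in Tconv KO at an adjusted p under 0.05 (limma with Benjamini-Hochberg adjustment over 14319 genes), where 4.16% of all genes tested were. Between Treg WT and Tconv WT the count was 5 of 8, where 2.20% of all genes tested were higher. The same 6 genes had every Treg KO library above every Tconv KO library, which held for 6.00% of all genes tested, and the same 5 had every Treg WT library above every Tconv WT library, which held for 5.87%. For Il10, Ebi3, Fgl2 and Il10ra, 4 of the 8, all 7 Treg libraries lay above all 9 Tconv libraries, as for 1.77% of all genes tested. Over all genes the median log2 difference was 0.0355 in KO and -0.00374 in WT. In sorted bulk samples, fewer cells that express a gene and less RNA per cell cannot be told apart. Log2 differences are of the deposited value plus 1.

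Il10 (chromosome 1, 131019845 to 131024974, plus strand) was the highest of the 8 per kilobase in Treg. It read 8472, 3836, 17184 and 14178 in Treg KO and 16794, 3200 and 20723 in Treg WT. In Tconv it read 711, 632, 464, 727 and 561 in the KO libraries and 372, 888, 287 and 170 in the WT libraries. The lowest Treg library, Treg WT 2, was still above the highest Tconv library, Tconv WT 2. The log2 difference was 3.95 (SE 0.51, adjusted p = 4.49e-05) between Treg KO and Tconv KO and 4.86 (SE 0.58, adjusted p = 3.99e-05) between Treg WT and Tconv WT (limma, as throughout), and the WT difference was 5.71 without Treg WT 2.

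Il10ra (chromosome 9, 45253837 to 45269149, minus strand), the receptor chain that binds IL-10, had the smallest standard errors of the 8 in both comparisons. It read 6201, 7626, 10064 and 6629 in Treg KO and 7661, 4708 and 9178 in Treg WT. It read 1824, 1966, 1665, 1702 and 1071 in Tconv KO and 1208, 1399, 1752 and 1083 in Tconv WT. The ratio of the highest to the lowest library was 1.62 in Treg KO, 1.95 in Treg WT, 1.84 in Tconv KO and 1.62 in Tconv WT. The log2 difference was 2.22 (SE 0.22, adjusted p = 3.29e-06) between Treg KO and Tconv KO and 2.37 (SE 0.25, adjusted p = 1.06e-05) between Treg WT and Tconv WT.

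Ebi3 (chromosome 17, 55952640 to 55957022, plus strand) read 181, 374, 311 and 445 in Treg KO and 187, 122 and 127 in Treg WT. In Tconv KO it read 56.9, 1, 1, 32.9 and 101, so 3 of 5 libraries had reads. In Tconv WT it read 1, 5.06, 1 and 1, so only Tconv WT 2 had any. The log2 difference between Treg KO and Tconv KO was 4.36 (SE 1.01, adjusted p = 0.0101), and it was 3.63 without Tconv KO 2 or without Tconv KO 3 and 5.05 without Tconv KO 5. Treg WT held 457 Ebi3 reads in all and Tconv WT held 2, a ratio of 243 when the reads of each group are pooled and divided by the group's summed size factors, with an exact 95% counting interval of 66.8 to 2009, which covers counting error only. The fitted log2 difference of 5.77 (SE 1.15, adjusted p = 0.00587) between Treg WT and Tconv WT depends on the pseudocount. It was 6.57 with a pseudocount of 0 and 3.68 with 10, each added to the deposited value, which already holds 1. Exons of the antisense gene Gm16712 overlap those of Ebi3, and reads of the pair cannot be told apart without strand, so Ebi3 is uncertain to that extent. The row of Gm16712 read 5.25 to 59.4 in Treg KO, 5.41 to 52.1 in Treg WT, 2.22 to 19.3 in Tconv KO and 1 to 19.3 in Tconv WT. How reads were shared between the 2 rows was not tested.

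Fgl2 (chromosome 5, 21372642 to 21378374, plus strand) read 7085, 5696, 5624 and 4256 in Treg KO and 7342, 3670 and 6899 in Treg WT. It read 390, 590, 1852, 244 and 619 in Tconv KO and 1183, 620, 2429 and 751 in Tconv WT. Tconv WT 3 was the highest Tconv library and still below Treg WT 2, the lowest of Treg. The log2 difference was 3.27 (SE 0.45, adjusted p = 8.42e-05) between Treg KO and Tconv KO. It was 2.41 (SE 0.51, adjusted p = 0.00855) between Treg WT and Tconv WT, where the adjusted p was 0.0576 with only those 2 groups in the fit.

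Areg (chromosome 5, 91139599 to 91148432, plus strand) read 3247, 2129, 5237 and 4234 in Treg KO and 4870, 844 and 4187 in Treg WT. It read 66.7, 71.1, 892, 129 and 61.4 in Tconv KO and 400, 123, 494 and 35.9 in Tconv WT. Treg WT 2 (844) was below Tconv KO 3 (892), so Treg and Tconv overlapped across genotypes but not within either. The log2 difference was 4.77 (SE 0.77, adjusted p = 0.000466) between Treg KO and Tconv KO, and 5.47 without Tconv KO 3. It was 3.90 (SE 0.88, adjusted p = 0.0136) between Treg WT and Tconv WT, 4.70 without Treg WT 2 and 3.15 without Tconv WT 4. That call was lost without Treg WT 1 (adjusted p = 0.0663), without Treg WT 3 (0.0743), with only the 2 groups in the fit (0.122) and with voom on reads (0.0955).

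Hbegf, on chromosome 18 (36504927 to 36515805, minus strand), was the lowest of the 8 per kilobase in Treg. It read 83.0, 91.6, 106 and 32.1 in Treg KO and 43.0, 3.62 and 1 in Treg WT. It read 8.30, 35.3, 1, 1 and 16.1 in Tconv KO and 28.9, 9.12, 78.5 and 31.4 in Tconv WT. In KO, 3 of the 4 Treg KO libraries exceeded all 5 Tconv KO libraries. The log2 difference of 3.28 (SE 1.01, 95% interval 1.16 to 5.40) between Treg KO and Tconv KO did not pass (adjusted p = 0.0583). It passed with a pseudocount of 10 (adjusted p = 0.0308), with voom on reads (0.0167), with only the 2 groups in the fit (0.0411) and without Tconv KO 2 (0.0300). Between Treg WT and Tconv WT the log2 difference was -2.004 (SE 1.15, 95% interval -4.42 to 0.41, adjusted p = 0.420).

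Calca (chromosome 7, 114631478 to 114636357, minus strand) has transcripts for calcitonin and for CGRP, which a value per gene does not separate. It read 1092, 1226, 720 and 886 in Treg KO and 547, 185 and 2864 in Treg WT. It read 27.8, 32.2, 289, 12.97 and 1 in Tconv KO and 506, 3.03, 375 and 1 in Tconv WT. All 4 Treg KO libraries lay above all 5 Tconv KO libraries, whereas Treg WT 2 was below Tconv WT 1 and Tconv WT 3. The log2 difference was 5.33 (SE 1.47, adjusted p = 0.0305) between Treg KO and Tconv KO, 6.24 without Tconv KO 3 and 4.44 without Tconv KO 5. That call was lost without any 1 of 8 libraries, namely Treg KO 1, 2, 3 and 4 (adjusted p = 0.0736, 0.0712, 0.0693 and 0.0725) and Tconv KO 1, 2, 4 and 5 (0.0547, 0.0504, 0.0654 and 0.0869), and with voom on reads (0.0884). Between Treg WT and Tconv WT the log2 difference of 4.24 (SE 1.67, 95% interval 0.74 to 7.73) did not pass (adjusted p = 0.192).

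Penk (chromosome 4, 4133531 to 4138819, minus strand) did not separate the cell types. It read 196, 539, 195 and 969 in Treg KO and 696, 480 and 31.9 in Treg WT. It read 213, 313, 66.3, 234 and 223 in Tconv KO and 1, 165, 85.5 and 33.6 in Tconv WT. Treg and Tconv overlapped in both genotypes. The log2 difference was 1.00 (95% interval -1.16 to 3.16, adjusted p = 0.691) between Treg KO and Tconv KO and 2.82 (95% interval 0.36 to 5.27, adjusted p = 0.220) between Treg WT and Tconv WT. Exons of the transcript gene A830012C17Rik overlap those of Penk, so the reads of the pair cannot be told apart with certainty.

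**Figure D2:**
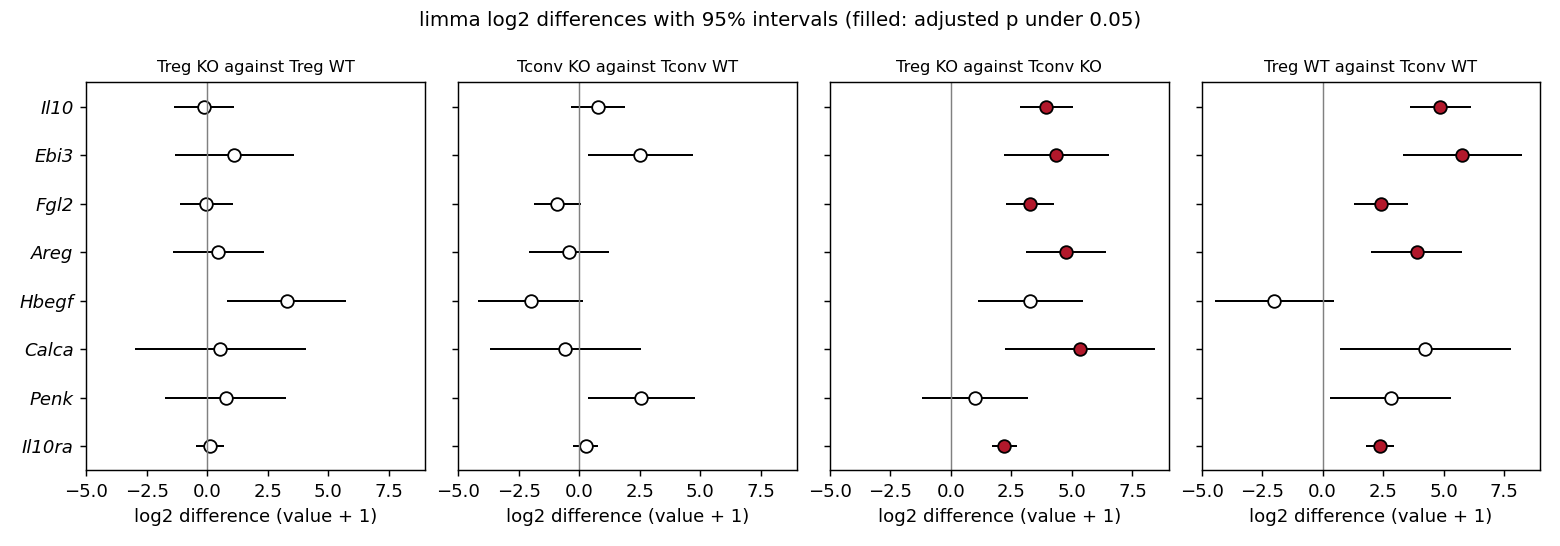
Log2 differences of the deposited value plus 1 from limma (x axis) for each of the 8 genes (y axis) in 4 comparisons, with 95% intervals as bars and filled points for an adjusted p under 0.05. Filled points stand in the 2 panels of Treg against Tconv, 6 in KO and 5 in WT, and none in the panels of KO against WT.

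The second comparison asked what loss of Hpgd did to these genes in the Treg themselves. None of the 8 passed between Treg KO and Treg WT (limma, adjusted p from 0.733 for Hbegf to 0.997 for Fgl2), where 0.0210% of all genes tested passed. At an unadjusted p under 0.05, 1 of the 8 (Hbegf) and 890 of 14319 genes were counted, and voom on reads called 0 of the 8. In 0 of the 8 did the groups not overlap, against 6.01% of all genes tested. The median log2 difference over all genes was 0.08.

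The intervals of the differences show what these libraries could resolve. Il10ra had the narrowest, with a log2 difference of 0.12 (95% interval -0.41 to 0.64) between Treg KO and Treg WT. Fgl2 had -0.03 (-1.10 to 1.03) and Il10 -0.14 (-1.35 to 1.07), so changes of up to about that size in either direction were within the intervals. Areg had 0.45 (-1.39 to 2.28), Ebi3 1.12 (-1.29 to 3.53), Penk 0.76 (-1.69 to 3.22) and Calca 0.54 (-2.96 to 4.03). Hbegf had the largest difference, 3.29 (0.88 to 5.70; limma's unadjusted p was 0.0102 and its adjusted p = 0.733). In Hbegf, 3 of 4 Treg KO libraries lay above all 3 Treg WT libraries and Treg KO 4 lay below Treg WT 1. The p that misses the threshold does not show that the genotypes are alike.

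For 6 of the 8 genes (Il10, Ebi3, Fgl2, Areg, Calca and Il10ra) 1 library, Treg WT 2, was the lowest of all 7 Treg libraries, as it was for 18.8% of all genes tested. Treg WT 3 was the lowest in the other 2, Hbegf and Penk, as for 14.7% of all genes tested, and the highest in Il10 and Calca. Treg WT 2 also had the lowest Il1rl1, 1725 against 10742 to 14889 in the other 6 Treg libraries, and the lowest Il2ra, 2154. Its Foxp3, 292, was within the range of the other Treg libraries. Without Treg WT 2, the log2 difference between Treg KO and Treg WT was -0.98 for Il10, -0.36 for Areg, -0.38 for Calca and -0.16 for Il10ra, the last 3 with a changed sign and none of the 8 called. Without Treg WT 3, the WT library with the least Hpgd, it was 0.36 for Il10, 0.80 for Areg, 1.59 for Calca, -0.62 for Penk and 2.35 for Hbegf, again with none called. The summed level of the 5 of 6 type 2 innate lymphoid cell markers found was 259 to 286 in Treg KO and 103 to 112 in Treg WT, groups that did not overlap. Of all single genes tested, 6.01% did not overlap between these groups. By log2 difference 4 of the 5 markers were higher in Treg KO, and none passed. Il5 averaged 156 ± 31.1 in Treg KO and 34.7 ± 34.2 in Treg WT (SD, n = 4 and 3). Arg1 averaged 18.4 ± 9.50 in Treg KO and 16.5 ± 26.9 in Treg WT. Il17rb was highest in Treg WT 2, at 66.4. Which cells these markers came from, and the part of such cells in the values, was not tested. More genes had reads in each Treg KO library (15135 to 16041) than in each Treg WT library (14216 to 14874).

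**Figure D3:**
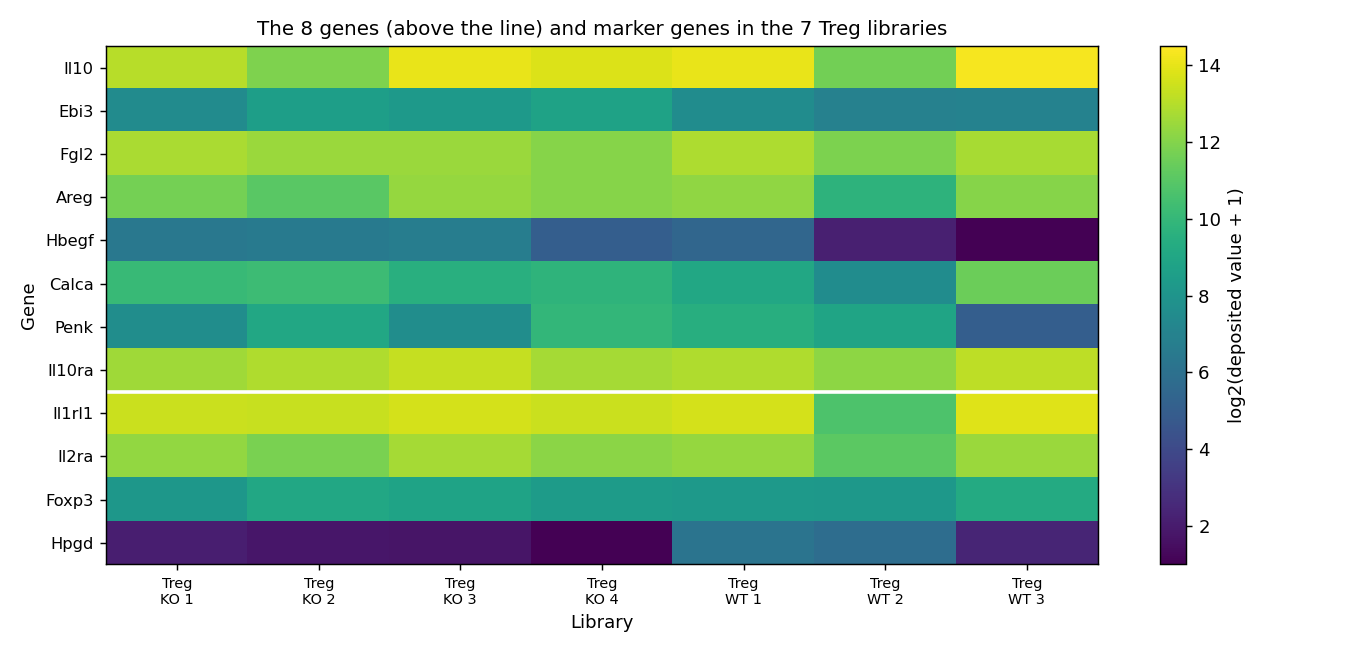
Colour map of log2(deposited value + 1) in the 7 Treg libraries (x axis, KO left of WT): the 8 genes stand above the white line, and the receptor genes Il1rl1 and Il2ra, Foxp3 and Hpgd stand below it (y axis). Treg WT 2 is the darkest column in Il10, Ebi3, Fgl2, Areg, Calca, Il10ra, Il1rl1 and Il2ra, and Treg WT 3 in Hbegf and Penk.

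The third comparison asked what the loss of Hpgd in Treg did to the Tconv beside them. None of the 8 passed between Tconv KO and Tconv WT (limma, smallest adjusted p = 0.858, for Ebi3 and Penk), where 0% of all genes tested passed, and voom on reads called 0 of the 8. At an unadjusted p under 0.05, 2 of the 8 (Ebi3 and Penk) and 781 of 14319 genes were counted. The groups overlapped in all 8, so that 0 of the 8 separated them, against 1.67% of all genes tested. Ebi3 had a log2 difference of 2.52 (95% interval 0.40 to 4.64), from 3 of 5 Tconv KO libraries with values of 32.9 to 101 and 4 Tconv WT libraries at or near 1. Penk had 2.58 (0.42 to 4.73), with 4 of 5 Tconv KO libraries above all 4 Tconv WT libraries and Tconv KO 3 the exception. Il10 had 0.78 (-0.29 to 1.84), Il10ra 0.27 (-0.19 to 0.73), Fgl2 -0.90 (-1.83 to 0.04) and Hbegf -1.99 (-4.12 to 0.13). Areg had -0.43 (-2.04 to 1.18) and Calca -0.56 (-3.63 to 2.51).

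Areg, Calca and Fgl2, 3 of the 8, had the same 3 highest Tconv libraries: Tconv KO 3, Tconv WT 1 and Tconv WT 3. This held for 2.28% of all genes tested. The 3 libraries read 289 in KO 3, 506 in WT 1 and 375 in WT 3 for Calca, against 1 to 32.2 in the other 6. They were also high in the summed level of 5 markers of type 2 innate lymphoid cells. It was 1341 in KO 3, 781 in WT 1 and 1318 in WT 3, against 3.38 to 114 in the other 6. Il5 among these markers read 940 in KO 3, 600 in WT 1 and 426 in WT 3. Not every marker followed. Arg1 read 286, 16.5 and 861 in the same order, and 16.8 in Tconv KO 1. Il17rb read 92.9, 98.2 and 26.2, and 33.8 in Tconv KO 1. Outside that list, Il1rl1 read 2548, 1566 and 1746 in the same order. Il2ra read 1299, 588 and 729, and Pparg 398, 316 and 485, while Foxp3 read 1.89, 20.6 and 1. Tconv KO 3 was also the deepest library, Tconv WT 1 held neutrophil genes (S100a8 10195) and Tconv WT 3 had a summed red cell and platelet marker level of 160120. Which cells these markers came from, and the part of such cells in the levels of Areg, Calca and Fgl2, was not tested. Il10, Ebi3, Penk, Hbegf and Il10ra did not share this order.

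These 3 libraries are the highest Tconv libraries for Areg, Calca and Fgl2, so leaving them out widens the difference between Treg and Tconv by construction, and the values without them are a description only. Without them, the log2 difference between Treg KO and Tconv KO was 5.47 for Areg, 6.24 for Calca and 3.69 for Fgl2. Between Treg WT and Tconv WT it was 5.26 for Areg, 7.87 for Calca and 3.06 for Fgl2, with only Tconv WT 2 and Tconv WT 4 left in Tconv WT. Between Tconv KO and Tconv WT the log2 difference without them was 0.23 for Areg and 2.17 for Calca, of changed sign, and -0.66 for Fgl2, with none called.

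**Figure D4:**
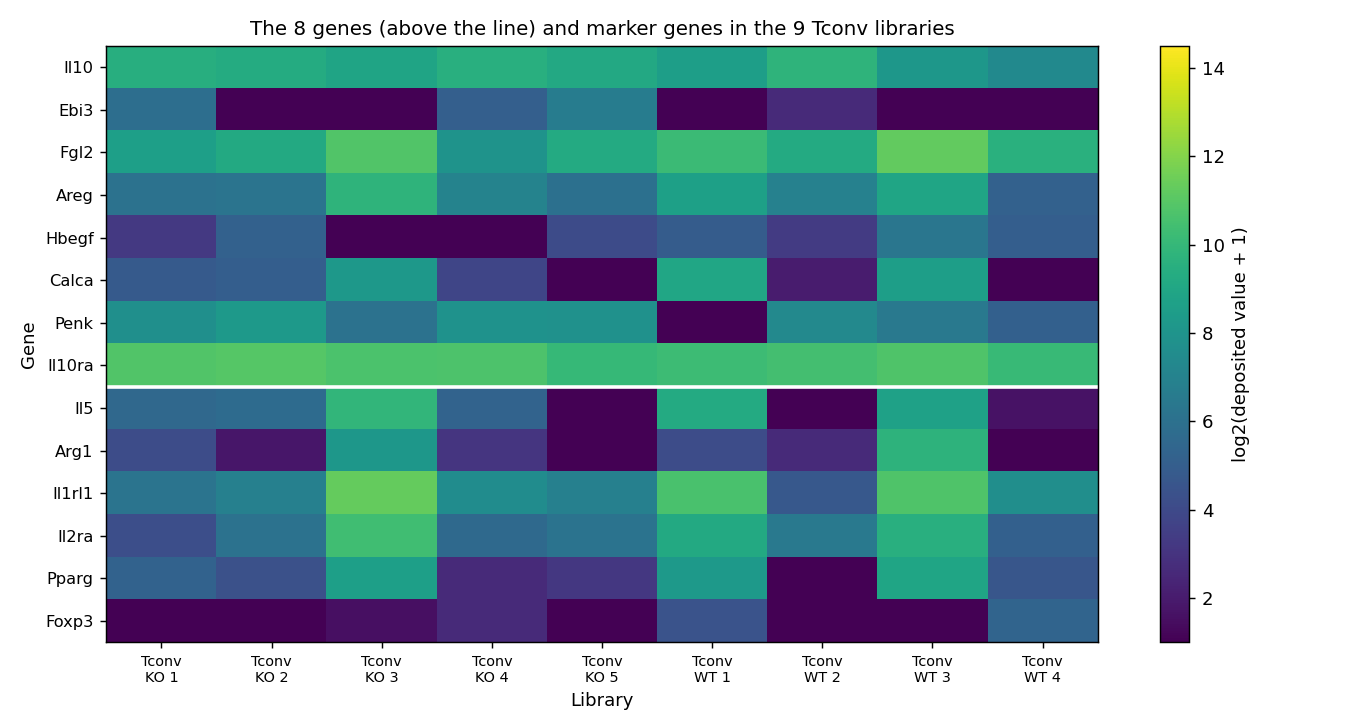
Colour map of log2(deposited value + 1) in the 9 Tconv libraries (x axis, KO left of WT): the 8 genes stand above the white line, and Il5, Arg1, Il1rl1, Il2ra, Pparg and Foxp3 below it (y axis). Tconv KO 3, Tconv WT 1 and Tconv WT 3 are bright in Fgl2, Areg and Calca above the line and in Il5, Il1rl1, Il2ra and Pparg below it.

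The effect of deletion was also compared between the cell types, as the log2 difference of KO to WT in Treg minus that in Tconv. It passed for 0 of the 8 genes, where 0% of all genes tested passed (limma; 1 of the 8, Hbegf, and 748 of all genes at an unadjusted p under 0.05, and 0 of the 8 by voom). Hbegf had the largest value, 5.28 (95% interval 2.07 to 8.50; limma's adjusted p = 0.928), and its difference was positive in Treg and negative in Tconv. The other 7 had intervals that included 0, the narrowest being Il10ra at -0.15 (-0.85 to 0.54).

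The other genes of each pathway were read from lists chosen for the roles of the 8. List counts stand beside the shares over all genes tested, which were 4.16% higher and 2.65% lower in Treg KO than in Tconv KO, and 2.20% higher and 1.98% lower in Treg WT than in Tconv WT. No gene of the 9 pathway lists passed between Treg KO and Treg WT, between Tconv KO and Tconv WT or in the difference of these effects. Of 11 tested genes of the IL-10 receptor and its signal, 3 were higher and 1 lower in Treg KO than in Tconv KO (median log2 difference 0.04), and 2 were higher and 2 lower in Treg WT than in Tconv WT (median 0.27). Beside Il10 and Il10ra, the higher gene was Bcl3, a nuclear regulator of NF-kB, in KO (624 ± 184 in Treg KO and 138 ± 51.8 in Tconv KO, SD, n = 4 and 5; adjusted p = 0.0226). Bcl3 was 660 ± 365 in Treg WT and 203 ± 173 in Tconv WT, which did not pass. Socs3, a feedback inhibitor of cytokine signals, was lower in both genotypes, with 1029 ± 434 in Treg KO and 3262 ± 908 in Tconv KO (adjusted p = 0.00695) and 932 ± 863 in Treg WT and 2697 ± 885 in Tconv WT (0.0153).

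Of 15 transcription factors with a known role at Il10, 2 were higher and 1 lower in Treg in each genotype, with medians of 0.14 in KO and 0.19 in WT. Gata3, known from Th2 cells and from Treg of tissues, was higher in both, with 16254 ± 3613 in Treg KO and 2583 ± 1444 in Tconv KO and 12394 ± 4314 in Treg WT and 3126 ± 999 in Tconv WT. The cyclic AMP response factor Crem was higher in Treg KO (9184 ± 2489) than in Tconv KO (2945 ± 879), with an adjusted p of 0.000270, and Prdm1 (Blimp-1) was higher in Treg WT (1082 ± 307) than in Tconv WT (476 ± 129), with an adjusted p of 0.0191. Ikzf1 (Ikaros) was the lower gene in both, with 790 ± 127 in Treg KO and 2675 ± 388 in Tconv KO and 1013 ± 274 in Treg WT and 2741 ± 319 in Tconv WT. That Crem passed in KO and Prdm1 in WT does not show a difference between genotypes, which passed for neither gene.

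Of 8 tested genes of the IL-12 family, Ebi3 alone was higher in Treg in each genotype, and Il12rb2, a chain of the IL-12 receptor, was lower in both, with 16.8 ± 28.5 in Treg KO and 123 ± 51.1 in Tconv KO (adjusted p = 0.00535) and 1.67 ± 0.59 in Treg WT and 109 ± 80.4 in Tconv WT (0.00594). The list's counts were 1 higher and 1 lower in KO and 1 higher and 2 lower in WT, with medians of 0.22 in KO and 0.15 in WT. Of 16 tested EGF family ligands, receptors and shedding enzymes, Areg and the ligand gene Tgfa were higher in Treg in both genotypes and none was lower (medians 0.31 in KO and 0.62 in WT). Tgfa was 82.0 ± 25.8 in Treg KO and 12.0 ± 13.6 in Tconv KO (adjusted p = 0.0295), and 232 ± 203 in Treg WT and 5.08 ± 3.73 in Tconv WT (0.00645).

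Of 7 tested genes of the CGRP family and its receptors, Calca and Ramp1, which makes the CGRP receptor with Calcrl, were higher in Treg KO than in Tconv KO (median 0.65), and none passed in WT (median 0.07). Ramp1 was 2246 ± 864 in Treg KO and 219 ± 141 in Tconv KO (log2 difference 3.43, adjusted p = 6.83e-05). It was 1608 ± 899 in Treg WT and 527 ± 343 in Tconv WT, which did not pass. Of 9 tested genes of peptide processing and breakdown, Pcsk1, a convertase that cuts precursors such as proenkephalin, was higher in Treg KO than in Tconv KO. It was 377 ± 121 in Treg KO and 65.8 ± 116 in Tconv KO (limma, adjusted p = 0.0228). Pcsk1 was 355 ± 252 in Treg WT and 55.6 ± 62.9 in Tconv WT, which did not pass. None of that list passed in WT, and its medians were 0.76 in KO and -0.29 in WT. None of 3 tested opioid peptide and receptor genes passed, with medians of 1.00 in KO and 1.47 in WT. Of 5 genes listed for Fgl2, a related ligand and receptors, Fgl2 alone passed (medians 1.05 in KO and 0.93 in WT). Of 13 other repair and growth factors, Metrnl, a hormone-like factor of fat and muscle, was higher in Treg KO than in Tconv KO. It was 596 ± 97.0 in Treg KO and 250 ± 103 in Tconv KO (limma, adjusted p = 0.00626). Metrnl was 848 ± 270 in Treg WT and 384 ± 63.7 in Tconv WT, which did not pass. None of that list passed in WT (medians 0.53 in KO and 0.85 in WT). That a gene passed in KO alone does not show a difference between genotypes, which passed for no gene of the lists.

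Genes whose levels ran most like those of the 8 over the 16 libraries were ranked among 8055 others (8056 for Hbegf) with a mean of 100 or more, by the root mean square difference of log2 values after each gene was centred on its own mean. This is a description, and most of it reflects the split between Treg and Tconv. Nearest to Il10ra were Tcn2 (0.34) and Smim3 (0.39), and nearest to Fgl2 were Itgav (0.45), Cd200r1 (0.47) and Ndrg1 (0.59). Areg ran most like Ltb4r1, a leukotriene receptor gene (0.65), Il2ra (0.77) and Sdc4 (0.80), and Il10 most like Cpm (0.86), Ptafr (1.04) and Gm2a (1.09). The nearest genes to Ebi3 were Acod1 (1.22), Il10 itself (1.70) and Pcyt1a (1.82), and to Calca they were Mmp25 (1.40), Il1rl1 (1.41) and Ltb4r1 (1.41). Penk (Haghl 1.31, Anxa4 1.36 and Ttc37 1.46) and Hbegf (Irgq 1.44, Gdpd5 1.46 and Tm9sf4 1.46) had no gene nearer than 1.31, against their own SDs over the libraries of 2.17 for Penk and 2.03 for Hbegf.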

How the data were processed

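RNA-seq libraries from 10 ng of RNA (SMART-seq2, which covers whole transcripts without strand, sequenced on a NextSeq 500 and demultiplexed with bcl2fastq2 2.20, per the labels' protocols) were analysed from 1 deposited table of 19540 genes in 16 libraries. The deposited values are a signal that is never negative: as the values show, each is a count of reads scaled by the library's size factor, with 1 added. The worth of 1 read was read off the steps of low values, and 100% of values under 1000 reads were whole within 0.1 of a read (largest distance 0.00477). The submitters' processing notes name the tools kallisto 0.44, DESeq2, R 3.3.1, Partek 6.6 and CASAVA 1.8 and the build mm10, and give none of them a role. The counting annotation, and whether counting used strand, are given in no source used here.

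Values were taken as log2(value + 1), and a gene was tested if 3 or more libraries reached a value of 10 (14319 genes). All 16 libraries entered 1 model of 4 group means in limma 3.58.1 (R 4.3.3) with its variance trend, from which 5 comparisons were drawn, each 2-sided. They were adjusted by Benjamini-Hochberg over all genes tested, and adjusted p under 0.05 counts as passing. Differences on this scale understate the change of low genes. The code was tested on simulated data with known changes. Alternatives were pseudocounts of 0 and 10 added to the deposited value, which already holds 1, no filter, a filter at 50 and quantile scaling. Others were a robust prior, only the groups compared, limma voom on the recovered reads and libraries left out. The replicate number was also used as a block, over all 4 groups and, for comparisons that involve both cell types, within each genotype. The members, lists and alternatives were chosen with earlier results of these data known. Named genes were the 8 in every comparison, Hpgd and Foxp3, up to 4 genes with the smallest p among those that passed in each pathway list, up to 3 of each marker list by mean level, and the 3 genes most like each of the 8. Most marker genes are given only through their list's summed level, and a few other genes this rule picked are not reported here, though counts and medians of lists include them. Il1rl1, Pparg and S100a8 were added because earlier results showed libraries that stand apart in them or in markers of their cell type. Il17rb was added because it did not follow the summed level of its marker list, and Gm16712 because its exons overlap those of Ebi3. Gene positions and exon lengths are from GENCODE M21 on mm10, and promoter windows from RefSeq on GRCm38.p6, the same build. Floors and read intervals reflect counting error alone, because the reads carry no molecular identifiers.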

Additional observations from a re-analysis of the deposited data

Results flagged for a closer look

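In 4 of 24 groups of 4 or 5 libraries checked, 1 library lay farther from its neighbour than the 95% limit of Dixon's test allows, which chance does in about 1 in 20 groups. Ebi3 read 5.06 in Tconv WT 2, above the other 3 Tconv WT libraries, which had no reads; with those tied at 1, any library with reads would be marked, so the chance rate does not apply to this group. Areg read 892 in Tconv KO 3, above the other 4 Tconv KO libraries. Penk read 66.3 in Tconv KO 3, below the other 4. Il10ra read 1071 in Tconv KO 5, below the other 4. Tconv KO 3, which holds 2 of these values, was the deepest library, at 56653889 reads.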

How the results depend on the processing

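Called differences between Treg and Tconv were counted as values, each 1 gene in 1 comparison under 1 alternative. The sign changed in 0 of 121 values under alternatives other than leaving out 1 library and in 0 of 89 values without 1 library. In these, 5 and 10 values lost the call, which the report names for Areg, Fgl2 and Calca. Limma voom also lost Ebi3 in WT (adjusted p = 0.109). The count of 5 genes higher in Treg WT than in Tconv WT was 3 with voom and 3 with only the groups compared, and 4 to 5 with 1 library left out. The count of 6 in KO was 5 to 6 with 1 library left out, 7 with a pseudocount of 10 and 7 with only the groups compared, and 6 under the other alternatives run. In the 3 comparisons of deletion the count was 0 in every fit run. Values that had not passed changed sign as follows. With voom, the log2 difference of Tconv KO to Tconv WT was 0.68 for Areg and 0.58 for Calca, and the difference between the deletion effects was 0.0823 for Ebi3 and -0.19 for Areg. With Tconv KO 3, Tconv WT 1 and Tconv WT 3 left out as a trio, the count was 6 in WT, where Calca was added by the choice of libraries, and Areg was 0.23 and Calca 2.17 in Tconv, and the difference between effects was -1.63 for Calca. The cause of these shifts was not tested.

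With 1 library left out, the log2 difference of Treg KO to Treg WT ranged from -0.98 to 0.36 for Il10, -0.16 to 0.32 for Il10ra, -0.35 to 0.15 for Fgl2, -0.36 to 0.90 for Areg, -0.38 to 1.59 for Calca and -0.62 to 1.58 for Penk. In Tconv it ranged from -1.94 to 0.72 for Calca and -1.18 to 0.0724 for Areg, and the difference between effects from -0.43 to 0.0512 for Il10ra and -0.18 to 2.48 for Calca.

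Deviations of same-numbered libraries from their group means had correlations across genes of -0.02 to 0.08. Differently numbered libraries were not set beside them, so whether the numbers pair the samples cannot be told. With the replicate block the counts were 6 in KO, 5 in WT and 0 in the comparisons of deletion, and the log2 difference was 0.20 for Fgl2 in Treg and 0.33 for Calca in Tconv. The value of 3 reads ran from 1.38 to 7.09 over the libraries; Hbegf and Ebi3 had no reads in Tconv KO 3, the deepest library.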
